A study of Mus musculus with 6 samples.

Results

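The 51 genes described here carry out DNA replication. They are the origin licensing factors, the replicative helicase and its activators, the DNA polymerases and their clamp, the proteins that bind single strands and join fragments, the enzymes that make deoxynucleotides, and a few factors that rebuild chromatin behind the fork. They were picked by gene symbol from a list of known replication genes, with earlier results of these data known. All 51 were found among the 23420 rows of the count table and all 51 were among the 13682 genes tested.

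The RNA came from splenic B cells of 3 Ahr+/+ and 3 Ahr-/- mice, purified by removing other cell types, so that each library is 1 mouse. Both genotypes received the same culture: 8 h with anti-IgM at 10 μg/ml, which engages the B-cell receptor (BCR), and IL-4 at 20 ng/ml, with the AhR ligand FICZ at 250 nM for the last 4 h. AhR, the aryl hydrocarbon receptor, is a transcription factor that moves to the nucleus and binds DNA once a ligand such as FICZ is bound. The labels give C57Bl/6J as the background strain of both genotypes and Ahr-/- with no allele. The methods of the study name B6.129-Ahr tm1Bra/J as the Ahr-/- strain, in which the deletion is not limited to B cells, but also use mice that lack AhR in B cells alone, and do not say which gave these libraries. No unstimulated or FICZ-free libraries belong to the comparison, so that it shows the difference between genotypes in activated cells and not the response to activation.

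A resting B cell has to build its replication machinery before it can divide. In G1 the origin recognition complex, with Cdc6 and Cdt1, loads the MCM2-7 helicase onto origins in an inactive form, and kinases and the GINS and Cdc45 proteins switch the helicase on at the start of S phase. Many of these genes are targets of E2F transcription factors, which are held back by retinoblastoma proteins until the cell commits to S phase, and BCR engagement with IL-4 is a classical way to take splenic B cells through that step.

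The libraries held between 22095096 and 53648787 counts, and the 51 genes together took 0.270% to 0.284% of the counts of each. The lowest count of any of these genes in any library was 31, against a floor of 3 counts, so all lay above what the depth can show. Ahr itself had 12681, 12892 and 13953 normalized counts (counts scaled to a common library size) in the Ahr+/+ mice and 8856, 8949 and 9717 in the Ahr-/- mice, and fell by 0.52 on the log2 scale (adjusted p = 7.1e-06, edgeR). A count over the whole gene cannot tell transcripts with the targeted exon from those without it. B-cell markers were abundant in every library, with a summed level of 115319 to 124525 normalized counts in Ahr+/+ and 136937 to 145377 in Ahr-/- cells, and 6 of their 9 genes rose in Ahr-/- cells by edgeR while none fell. Of 10 plasmacytoid dendritic cell markers 8 rose and 1 fell. Their summed level, 33824 to 35592 normalized counts in Ahr+/+ and 38804 to 40044 in Ahr-/- cells, was mostly Irf8 and Tcf4, which B cells also express, while Siglech and Klk1, which are scarce, rose by 2.23 and 2.19 on the log2 scale. Of 9 conventional dendritic cell markers 5 rose and 1 fell, with sums of 835 to 958 and 954 to 1147. Of 7 plasma cell markers 3 rose and 2 fell, the latter being Prdm1 (−0.64) and Igj (−0.92). Of the other lists, 2 of 7 NK cell markers rose, and 2 of 9 monocyte and macrophage markers rose and 1 fell. In the T cell list 1 of 9 rose and 1 fell, while 0 of 7 neutrophil and 0 of 5 erythroid markers changed. Of all genes tested, 17.9% changed at an adjusted p under 0.05 by edgeR, 9.79% upward and 8.13% downward. The T cell share of 22.2% was near this. It was 28.6% for NK cells, 33.3% for monocytes and macrophages, and 66.7% to 90% in the B cell, plasma cell and dendritic cell lists. In bulk RNA, fewer cells of a type and less RNA per cell cannot be told apart, and the part of these shifts in the values below was not tested.

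The replication genes as a group had much the same level in the Ahr+/+ and Ahr-/- B cells. Summed over the 51 genes, the mice had 105139, 106379 and 106800 normalized counts in Ahr+/+ and 104821, 108370 and 104083 in Ahr-/- cells, and the genotypes overlapped. At an adjusted p under 0.05 by edgeR's quasi-likelihood test, adjusted over all genes tested, 5 of the 51 genes changed. This is 9.80% of them, beside 17.9% of all genes tested. Cdt1, Dut and Rpa1 fell, while Uhrf1 and Mcm6 rose. The 3 that fell stand beside a background of 8.13% of all genes lower, and the 2 that rose beside 9.79% higher. The median log2 fold change was −0.0044 over the 51 genes and 0.0022 over all genes, with 27 of the 51 below 0 and 24 above. The median absolute change was 0.070 on the log2 scale, beside 0.11 over all genes, but more abundant genes had smaller changes. For genes with a mean of 1000 normalized counts or more it was 0.071 for the replication genes and 0.065 for all.

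These genes were measured closely enough to bound most of the differences. For 43 of the 51, the 95% interval of the fold change lay within 1.25-fold in either direction, which held for 7272 of the 13682 genes tested. Where the mean reached 1000 normalized counts this held for 29 of 31 replication genes and for 5426 of 6213 genes in all. For 49 of the 51 it lay within 1.5-fold, the exceptions being Mcm10 and Tyms. The share of calls also depends on level. At a mean of 1000 or more, 5 of 31 replication genes changed, or 16.1%, beside 21.3% of 6213 genes of that level. Of the 20 replication genes with a lower mean 0 changed by edgeR, and 1, Tyms, had an unadjusted p under 0.05. Among all 13682 genes tested 2453 changed, and 1322 of these were among the 6213, so genes of lower mean changed less often in general. In all, 9 of the 51 genes had an unadjusted edgeR p under 0.05, beside 4021 of the 13682 genes tested. DESeq2 called 6, the 5 above and Rrm1, which is 11.8% of the 51, beside 17.4% of all genes. No overlap between genotypes was seen for 13 of the 51 genes, and for 33.5% of all genes tested.

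**Figure D1:**
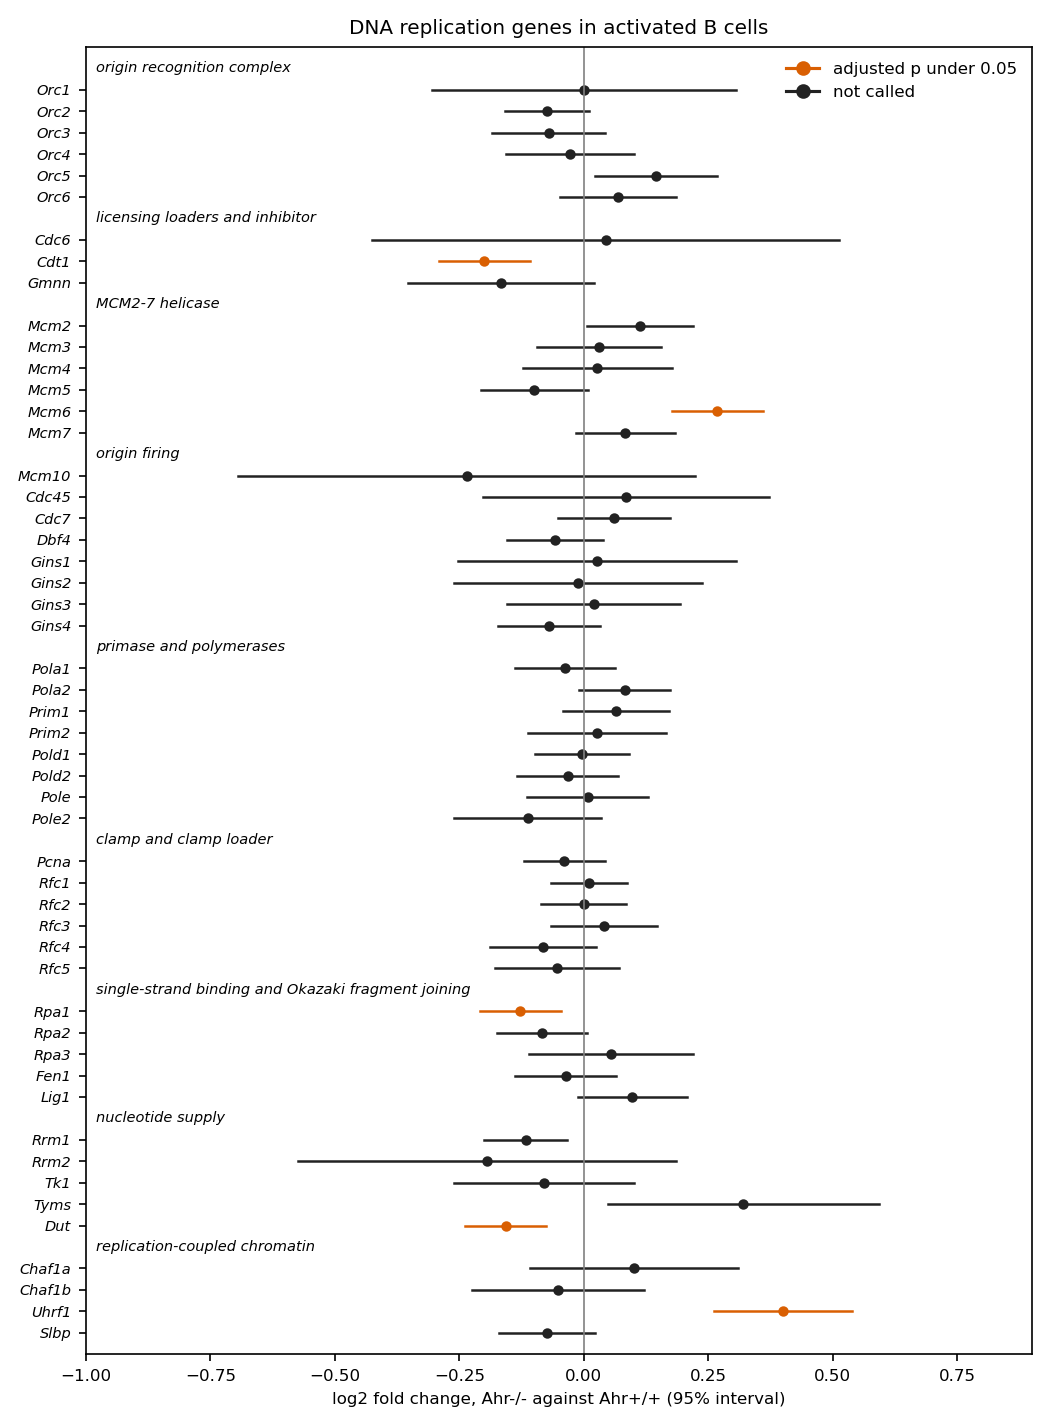
Log2 fold change of each of the 51 replication genes in Ahr-/- against Ahr+/+ B cells (x axis, points) with its 95% interval from edgeR (lines), grouped by role, with genes at an adjusted p under 0.05 in orange. Most points lie near 0, Cdt1, Rpa1 and Dut lie to the left and Mcm6 and Uhrf1 to the right, and the widest intervals belong to Cdc6 and Mcm10, the genes with the fewest counts.

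The genes that changed were also looked at in sequence, since E2F proteins and AhR bind DNA at known short motifs. RefSeq promoter windows, from 250 bases before to 50 after the annotated start (assembly GRCm38.p6), could be matched by symbol for 43 of the 51 genes and gave 53 windows. No window was at hand for Gins1, Gins2, Gins4, Prim2, Pole, Gmnn, Mcm4 and Rfc2. The windows were searched on both strands for 4 E2F-type sequences (TTTCCCGC, TTTCGCGC, TTTGCCGC and TTTGGCGC) and for the core of the AhR binding motif (GCGTG). Among the 5 changed genes, 3 had an E2F-type match, and their windows are shown because they let the 2 motifs be read side by side. Each is written 5′ to 3′ on the strand of the gene, with E2F-type and AhR core matches on either strand in capitals. They are Cdt1 (chr8:122567765-122568064, plus strand), Mcm6 (chr1:128359656-128359955, minus strand) and the second window of Uhrf1 (chr17:56304063-56304362, plus strand).
Cdt1: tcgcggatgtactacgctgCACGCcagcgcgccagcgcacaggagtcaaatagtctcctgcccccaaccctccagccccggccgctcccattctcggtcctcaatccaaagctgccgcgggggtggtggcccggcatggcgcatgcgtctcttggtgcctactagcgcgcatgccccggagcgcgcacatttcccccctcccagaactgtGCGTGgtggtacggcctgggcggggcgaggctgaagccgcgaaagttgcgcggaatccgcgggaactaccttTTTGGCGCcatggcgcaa
Mcm6: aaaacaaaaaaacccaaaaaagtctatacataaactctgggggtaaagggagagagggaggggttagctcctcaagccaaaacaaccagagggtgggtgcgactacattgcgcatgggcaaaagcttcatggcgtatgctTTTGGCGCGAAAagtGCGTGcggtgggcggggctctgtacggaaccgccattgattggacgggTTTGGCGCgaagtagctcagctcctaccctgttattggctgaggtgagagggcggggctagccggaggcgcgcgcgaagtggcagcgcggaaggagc
Uhrf1: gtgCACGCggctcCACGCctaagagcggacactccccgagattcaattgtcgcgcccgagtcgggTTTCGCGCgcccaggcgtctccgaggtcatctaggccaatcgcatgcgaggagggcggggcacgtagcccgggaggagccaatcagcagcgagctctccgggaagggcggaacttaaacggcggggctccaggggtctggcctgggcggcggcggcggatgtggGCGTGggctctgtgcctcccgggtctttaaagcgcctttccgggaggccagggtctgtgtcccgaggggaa

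Counted from the annotated start as position 1, the Cdt1 match TTTGGCGC lay at positions 33 to 40. The Mcm6 window held TTTGGCGC at −110 to −103 and again at −47 to −40, and TTTCGCGC on the other strand at −106 to −99, which overlaps the first of them. The Uhrf1 window held TTTCGCGC at −185 to −178. The windows of Dut and Rpa1, and the other window of Uhrf1, held none of the 4 sequences. The Dut window (chr2:125247265-125247564) begins inside the gene as the GENCODE annotation places it, from 125247190. The Rpa1 window (chr11:75348334-75348633) lies wholly before the GENCODE start at 75348324. RefSeq and GENCODE thus place these starts differently, and the sequence at the GENCODE starts was not searched. The AhR core occurred in a window of each of the 5 changed genes, 3 times in that of Uhrf1, 2 times in those of Cdt1, Dut and Rpa1 and 1 time in that of Mcm6.

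Over the whole set, 15 of the 43 genes with a window had an E2F-type match, or 34.9%, beside 4.58% of the 10034 tested genes with a window and 2.60% of the 27025 genes with one. By window the shares were 28.3% of 53 and 3.79% of 12738. The other genes with a match were Orc1, Orc3, Cdc6, Mcm3, Mcm5, Mcm7, Gins3, Pola1, Pold1, Pole2, Rfc3 and Lig1, and none of these 12 changed between genotypes by edgeR at an adjusted p under 0.05. The AhR core was about as frequent in the replication genes (24 of 43, 55.8%) as in all tested genes (54.6%). The CCAAT box, another common promoter element, was found in 26 of 43 (60.5%), beside 42.8% of tested genes. These are matches of letters in a fixed window, and no binding was measured here.

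The origin recognition complex marks origins throughout the cell cycle. Of its 6 genes 0 changed by edgeR or DESeq2. Of them 1, Orc5, had an unadjusted edgeR p under 0.05, beside 4021 of all 13682 genes. Orc5 had the largest difference, with 992, 914 and 991 normalized counts in Ahr+/+ and 1136, 1045 and 1033 in Ahr-/- mice. The Ahr-/- mice were all higher, without overlap, but the log2 fold change of 0.14 (95% interval 0.02 to 0.27) had an adjusted p of 0.10 by edgeR. Orc1, the subunit whose level is most tied to the cell cycle, was the scarcest of the 6, with 95.2 to 127 normalized counts over the 6 mice and no difference between the genotype means beyond their spread.

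Cdt1, which brings the MCM helicase to the origin and is destroyed once S phase begins, fell in Ahr-/- B cells. The Ahr+/+ mice had 4202, 4051 and 3998 normalized counts and the Ahr-/- mice 3596, 3394 and 3687. Every Ahr-/- mouse lay below every Ahr+/+ mouse. Cdt1 is on chromosome 8 of GRCm38 from 122568015 to 122573554, and no other annotated gene overlaps its exons. Its means were 4084 ± 106 and 3559 ± 150 (SD, n = 3 mice per genotype), with a log2 fold change of −0.20 (95% interval −0.29 to −0.11, adjusted p = 0.0054, edgeR). The difference was below 0 with each library left out in turn, from −0.23 to −0.16, and passed the threshold in all 15 alternatives tried. The two-sided exact permutation test gave p = 0.1, the smallest that 3 mice against 3 allow, as it did for each of the other changed genes.

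Geminin, encoded by Gmnn, binds Cdt1 and stops origins from being licensed again. It had 311, 360 and 338 normalized counts in Ahr+/+ and 281, 311 and 301 in Ahr-/- mice. The values hardly separated, the highest Ahr-/- mouse standing just under the lowest Ahr+/+ mouse, and the log2 fold change of −0.17 (95% interval −0.35 to 0.02) had an adjusted p of 0.22 by edgeR. The log2 ratio of Cdt1 to Gmnn was 3.60 ± 0.137 in Ahr+/+ and 3.58 ± 0.117 in Ahr-/- mice (SD, n = 3), so the genotypes overlapped in this ratio. Cdc6, the partner of Cdt1 in loading, was at only 53.2 to 88.9 normalized counts and had the widest 95% interval of the 51 genes, too wide to show a difference of this size.

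**Figure D2:**
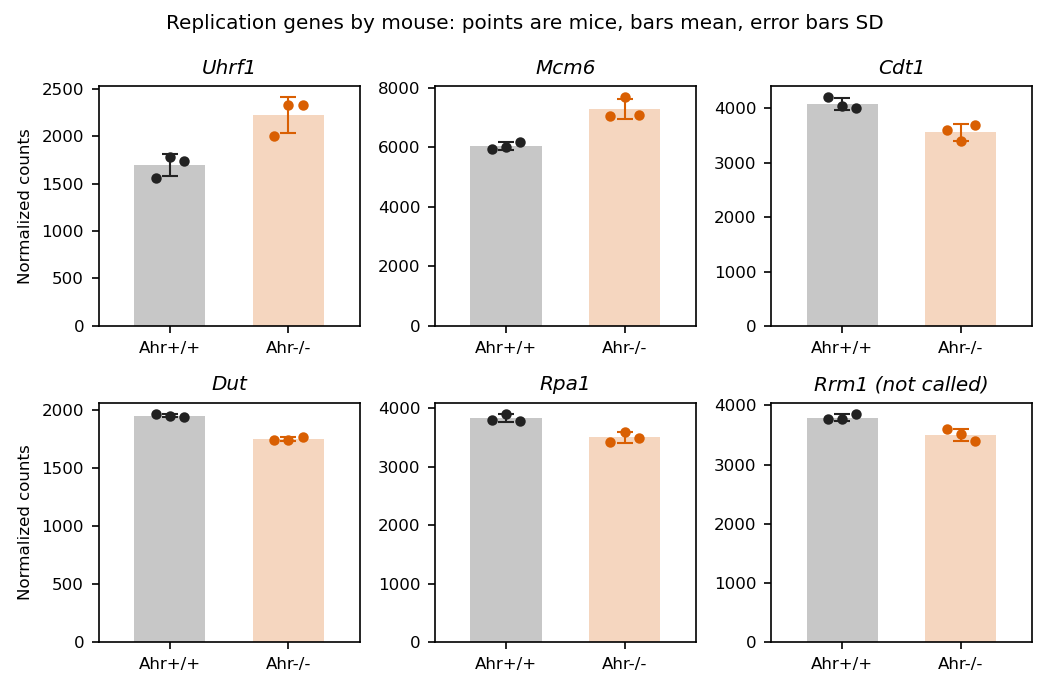
Normalized counts (y axes, from 0) of the 5 replication genes that changed and of Rrm1, which missed the threshold, in each Ahr+/+ and Ahr-/- mouse (points), with the mean (bars) and SD (error bars, n = 3). No Ahr-/- mouse overlaps the Ahr+/+ range in any panel; Uhrf1 and Mcm6 are higher and the other 4 genes lower in Ahr-/- B cells.

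Mcm6 was the subunit that rose in the MCM2-7 helicase, a ring that holds each of its 6 different subunits once. It had 5933, 6012 and 6187 normalized counts in Ahr+/+ and 7057, 7670 and 7092 in Ahr-/- mice. The lowest Ahr-/- mouse stood well above the highest Ahr+/+ mouse. The means were 6044 ± 130 and 7273 ± 344 (SD, n = 3 mice each), and the log2 fold change was 0.27 (95% interval 0.18 to 0.36, adjusted p = 6.3e-04, edgeR). It stayed between 0.23 and 0.29 with each library left out and passed the threshold in all 15 alternatives. Mcm6 lies on chromosome 1 from 128331590 to 128359664 on the minus strand, with no other annotated gene over its exons.

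The other subunits gave smaller differences, none of which passed the threshold. Mcm2 had a log2 fold change of 0.11 (95% interval 0.0064 to 0.22, adjusted p = 0.14 by edgeR) and Mcm7 one of 0.08 (95% interval −0.02 to 0.18). Mcm5 went the other way at −0.10 (95% interval −0.21 to 0.0090). These values also leaned on single mice, since Mcm2 was at 0.06 and Mcm7 at 0.05 without Ahr+/+ replicate 1, and Mcm5 at −0.05 without Ahr-/- replicate 1. Mcm3 and Mcm4 were both at 0.03, and their sign turned without Ahr+/+ replicate 1 or Ahr-/- replicate 2.

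The level of Mcm6 was then set against its partners within each mouse, as a description, since Mcm6 was picked for its rise. On the log2 scale, Mcm6 stood above the mean of the other 5 subunits by 0.71, 0.60 and 0.65 in Ahr+/+ and by 0.91, 0.88 and 0.88 in Ahr-/- mice. The genotypes did not overlap, and the means differed by 0.24. Levels per kilobase were taken over the joined exons of all annotated transcripts of a gene, so the order of the subunits depends on that length. Per kilobase of exon, the subunits ran in Ahr+/+ cells from Mcm5 (1522 ± 57.0 normalized counts per kilobase) through Mcm6 (1295 ± 27.9), Mcm3 (984 ± 41.4), Mcm2 (764 ± 46.2) and Mcm4 (721 ± 56.1) to Mcm7 (618 ± 26.2, SD, n = 3). Mcm2 and Mcm4 did not differ beyond their spread. In Ahr-/- cells the first places were exchanged, with Mcm6 at 1559 ± 73.7 and Mcm5 at 1418 ± 92.8, and the lowest mouse for Mcm6 stood just over the highest for Mcm5.

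**Figure D3:**
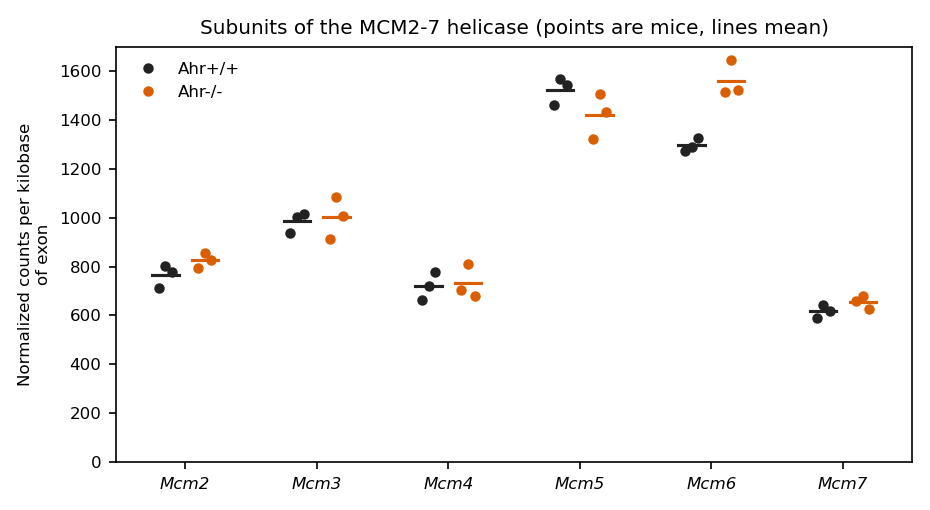
Level of the 6 subunits of the MCM2-7 helicase in normalized counts per kilobase of exon (y axis, from 0) in each Ahr+/+ (black) and Ahr-/- (orange) mouse, with lines at the mean of 3 mice. The genotypes separate for Mcm6, from 1295 ± 27.9 to 1559 ± 73.7, and overlap for the other 5 subunits.

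Origin firing turns the loaded helicase on, through the Cdc7-Dbf4 kinase, Cdc45, the 4 GINS subunits and Mcm10. Of these 8 genes 0 changed by edgeR or DESeq2, and 0 had an unadjusted edgeR p under 0.05, beside 4021 of all 13682 genes. Mcm10 had the lowest log2 fold change of the 51 genes, −0.24, with 69.9, 115 and 106 normalized counts in Ahr+/+ and 73.8, 100 and 67.5 in Ahr-/- mice. The genotypes overlapped, the counts were few, and the 95% interval ran from −0.69 to 0.22 (adjusted p = 0.51, edgeR). With a library left out the value ran from −0.46 (without Ahr-/- replicate 2) to −0.09 (without Ahr+/+ replicate 2), so neither its size nor its place as the lowest is firm. The other 7 log2 fold changes lay between −0.07 and 0.08, and Dbf4 was the gene among the 8 whose genotypes did not overlap.

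DNA polymerase α with primase starts each strand, and polymerases δ and ε extend the lagging and leading strands. Of the 8 genes for these enzymes 0 changed by edgeR or DESeq2. An unadjusted edgeR p under 0.05 was found for 0 of them, beside 4021 of all 13682 genes. The 95% intervals of all 8 lay within 1.25-fold. The largest difference was at Pole2, a subunit of polymerase ε, which had 689, 657 and 763 normalized counts in Ahr+/+ and 673, 663 and 616 in Ahr-/- mice. These values overlapped, and the log2 fold change was −0.11 (95% interval −0.26 to 0.04, adjusted p = 0.30, edgeR), or −0.05 without Ahr+/+ replicate 3.

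Pcna, the sliding clamp that tethers the polymerases, was by far the most abundant of the 51 genes per kilobase of exon, with 6005 ± 179 normalized counts per kilobase in Ahr+/+ and 5846 ± 164 in Ahr-/- cells (SD, n = 3). Its level per library ran from 13918 to 14701 normalized counts in Ahr+/+ and from 13575 to 14258 in Ahr-/- mice, which overlap. The log2 fold change was −0.04 (95% interval −0.12 to 0.04), and ran from −0.06 (without Ahr+/+ replicate 2) to −0.02 (without Ahr-/- replicate 3) with a library left out. The 6 genes of the clamp and its loader gave 0 calls by edgeR or DESeq2. At an unadjusted edgeR p under 0.05 they gave 0 as well, beside 4021 of all 13682 genes. Among the 5 genes of the clamp loader, replication factor C, the widest difference was at Rfc4, with 994, 964 and 970 normalized counts in Ahr+/+ and 954, 914 and 905 in Ahr-/- mice. The ranges came close to touching, and the log2 fold change of −0.08 had an adjusted p of 0.30 by edgeR.

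Rpa1, the large subunit of replication protein A that coats single-stranded DNA, was slightly lower in Ahr-/- B cells. It had 3805, 3906 and 3790 normalized counts in Ahr+/+ and 3424, 3603 and 3492 in Ahr-/- mice, with no overlap. The log2 fold change of −0.13 (95% interval −0.21 to −0.05) had an adjusted p of 0.035 by edgeR. Rpa1 was the weakest of the 5 calls: it lost the threshold with any of the 6 libraries left out (adjusted p = 0.055 to 0.11, edgeR) and with scaling by library size alone. Rpa1 lies on chromosome 11 from 75298166 to 75348324 on the minus strand and overlaps Gm47300 on the same strand, which leaves its count uncertain.

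The other two subunits of the complex did not change. Rpa2 was at −0.08 (95% interval −0.17 to 0.0074) and Rpa3 at 0.05 (95% interval −0.11 to 0.22), and Rpa3 turned to −0.0012 without Ahr-/- replicate 2. The log2 level of Rpa1 against the mean of these subunits differed by −0.12 between genotypes, which overlapped. Fen1 and Lig1, the nuclease and ligase that finish Okazaki fragments, did not change either by edgeR.

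Among the 5 genes for enzymes that supply deoxynucleotides, 1 fell and 0 rose. Dut, the dUTPase that keeps uracil out of DNA, fell from 1967, 1947 and 1942 normalized counts in Ahr+/+ to 1739, 1744 and 1768 in Ahr-/- mice. The genotypes did not overlap in Dut. Its coefficient of variation between mice of a genotype was 0.784%, below the 2.41% that counting error alone would give. The closeness of the mice is therefore not a measure of how even they were. The means were 1952 ± 13.2 and 1750 ± 15.7 (SD, n = 3 mice each), −0.16 apart on the log2 scale (95% interval −0.24 to −0.08, adjusted p = 0.011, edgeR). Without Ahr-/- replicate 2 the value was −0.15 with an adjusted p of 0.066 by edgeR. Dut lies on chromosome 2 from 125247190 to 125258608 with no other annotated gene over its exons.

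Ribonucleotide reductase makes deoxynucleotides from ribonucleotides and consists of a large subunit, Rrm1, and a small subunit, Rrm2. Rrm1 had 3760, 3763 and 3853 normalized counts in Ahr+/+ and 3597, 3515 and 3390 in Ahr-/- mice. The genotypes did not overlap, and the log2 fold change of −0.12 (95% interval −0.20 to −0.03) just missed the threshold (adjusted p = 0.054, edgeR). It passed in 3 of the 15 alternatives. Rrm2, which rises in S phase, was far scarcer, at 49.5 to 56.8 normalized counts per kilobase of exon in the genotype means against 318 to 344 for Rrm1, and its log2 fold change of −0.19 had a 95% interval of −0.57 to 0.19. It was −0.36 without Ahr+/+ replicate 1 and −0.03 without Ahr+/+ replicate 2.

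Tyms, thymidylate synthase, had 250, 282 and 245 normalized counts in Ahr+/+ and 403, 307 and 279 in Ahr-/- mice. The third Ahr-/- mouse fell inside the Ahr+/+ range while the first, the library with the fewest total counts, stood far above the rest. Its log2 fold change of 0.32 (95% interval 0.05 to 0.59) had an adjusted p of 0.11 by edgeR. Without Ahr-/- replicate 1 it was 0.18 (adjusted p = 0.29, edgeR), and without Ahr-/- replicate 3 it was 0.42 (adjusted p = 0.029, edgeR), so the value rested on single mice. Tk1, the thymidine kinase of the salvage route, overlapped between genotypes and did not change.

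Uhrf1 had the largest difference of the 51 genes. Its product recognises hemimethylated DNA behind the fork and brings in Dnmt1, the enzyme that copies methylation onto the new strand. It had 1560, 1779 and 1740 normalized counts in Ahr+/+ and 2001, 2327 and 2329 in Ahr-/- mice, each Ahr-/- mouse above each Ahr+/+ mouse. The means were 1693 ± 117 and 2219 ± 189 (SD, n = 3 mice each), and the log2 fold change was 0.40 (95% interval 0.26 to 0.54, adjusted p = 7.4e-04, edgeR). It stayed between 0.34 and 0.46 with each library left out and passed the threshold in all 15 alternatives. Uhrf1 lies on chromosome 17 from 56303321 to 56323486, with no other annotated gene over its exons.

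The level of Uhrf1 was set against that of its partner in the same way, as a description. Dnmt1 had 4172, 4559 and 4379 normalized counts in Ahr+/+ and 4135, 4611 and 4704 in Ahr-/- mice, which overlap. The log2 ratio of Uhrf1 to Dnmt1 was −1.42, −1.36 and −1.33 in Ahr+/+ and −1.05, −0.99 and −1.01 in Ahr-/- mice. The genotypes did not overlap in this ratio either, and the means differed by 0.35. The remaining genes of this group, Chaf1a and Chaf1b of the histone chaperone that follows PCNA and Slbp, which binds the stem-loop of histone mRNAs, did not change.

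How even the 51 genes were between mice of 1 genotype depended on their level. The 14 genes with a mean under 500 normalized counts were Orc1, Cdc6, Gmnn, Mcm10, Cdc45, Gins1, Gins2, Gins3, Prim2, Rrm2, Tk1, Tyms, Chaf1a and Chaf1b, a split chosen after the spread had been seen. Their coefficient of variation between mice of a genotype had a median of 11.1% and ran from 2.74% to 23.4%. For the other 37 genes the median was 3.79%, with a range of 0.784% to 8.73%. The coefficient of variation was above what counting error alone would give for 11 of the 14, as for Mcm10 (23.4% against 11.0%) and Orc1 (10.4% against 9.85%), and below it for Gins3, Prim2 and Tk1.

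The spread of the 14 scarce genes was in part shared. Ahr+/+ replicate 1 was the lowest mouse of its genotype for 11 of the 14 and replicate 2 the highest for 10. In the Ahr-/- group, replicate 2 was the highest for 11. Their summed level was 3290, 3791 and 3671 normalized counts in Ahr+/+ and 3529, 3785 and 3448 in Ahr-/- mice. In a list of 20 mitosis genes, Ahr+/+ replicate 1 was lowest for 19 and replicate 2 highest for 19, while Ahr-/- replicate 2 was highest for 16. The low end of the Ahr-/- group was not shared: replicate 1 was lowest for 8 of the 14 scarce genes and replicate 3 for 6, but replicate 3 for 15 of the 20 mitosis genes. Of 7 neutrophil markers tested, 5 were lowest in Ahr+/+ replicate 1 and 5 highest in Ahr+/+ replicate 2. In the Ahr-/- group 6 were highest in replicate 2 and 7 lowest in replicate 3. Their summed levels were 114, 348 and 252 normalized counts in Ahr+/+ and 266, 501 and 130 in Ahr-/- libraries. Parts of this pattern were seen in other marker lists. Ahr-/- replicate 3 was also lowest for 9 of 9 monocyte and macrophage, 7 of 7 NK cell and 5 of 5 erythroid markers. It was lowest for 3 of 9 T cell and 1 of 9 B cell markers. Highest in Ahr+/+ replicate 2 were 7 of 9 monocyte and macrophage and 8 of 9 T cell markers, but 4 of 7 NK cell markers. The part of these lists in the spread was not tested. The median log2 fold change of the 14 genes was 0.01, and it was −0.08 without Ahr+/+ replicate 1 and −0.06 without Ahr-/- replicate 2.

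**Figure D4:**
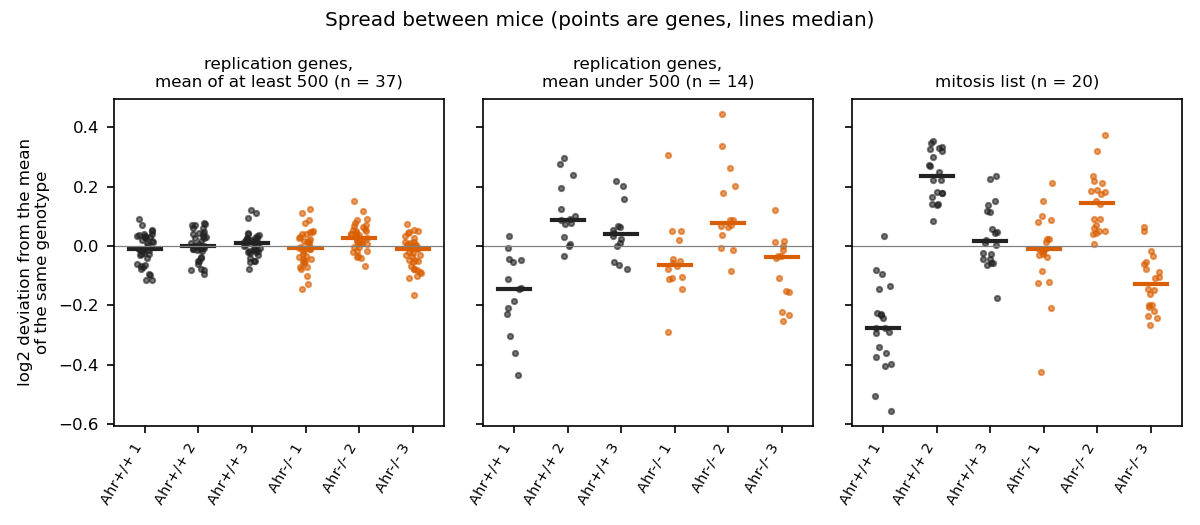
Log2 deviation of each gene from the mean of its genotype (y axis) in each mouse (x axis; points are genes, lines the median) for the 37 replication genes whose mean reached 500 normalized counts, the 14 with a lower mean, and 20 mitosis genes. The 37 genes lie close to 0 in every mouse, while the 14 are low in Ahr+/+ replicate 1, at a median of −0.14, and the mitosis genes lower still, at −0.28.

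Other genes of replication and its supply lines were taken from lists of 74 further genes. Of these, 15 changed, or 20.3%, beside 17.9% of all genes tested, so their share was near the background with all libraries. In Ahr-/- cells 9 were lower and 6 higher, beside 8.13% and 9.79% of all genes. Among 37 fork and origin factors, 5 fell and 1 rose, which is 16.2% of them. Top1, the topoisomerase that relaxes DNA ahead of the fork, fell by 0.15 on the log2 scale (adjusted p = 0.010, edgeR), and so did Rmi2 (−0.18), the histone chaperone subunit Supt16 (−0.13) and Wdhd1 (−0.20), which ties polymerase α to the helicase. Pold4, the small subunit of polymerase δ, rose by 0.18 (adjusted p = 0.036, edgeR).

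Among 28 other nucleotide genes, 5 rose and 2 fell, which is 25% of them. Beside this stand 17.9% of all genes tested and 21.3% of those with a mean of 1000 normalized counts or more. Dctd, the dCMP deaminase that makes the substrate of thymidylate synthase, had 1090, 1153 and 1138 normalized counts in Ahr+/+ and 1612, 1679 and 1565 in Ahr-/- mice, without overlap. The log2 fold change, 0.52 (95% interval 0.42 to 0.63, adjusted p = 5.9e-06, edgeR), was larger than that of any of the 51 genes. Mthfd2 of mitochondrial folate metabolism rose by 0.20, Samhd1, which breaks down deoxynucleotides, by 0.30 and Dctpp1, which hydrolyses dCTP, by 0.15, while the folate enzyme Shmt2 fell by 0.12. The genotypes of Samhd1 overlapped slightly, and its call was lost with DESeq2 and with a robust fit (adjusted p = 0.085 and 0.15). Of 9 chromatin genes 2 changed, or 22.2%. Both were histone chaperones that fell: Rbbp7 by 0.18 (adjusted p = 0.0039, edgeR) and Asf1b by 0.21 (adjusted p = 0.049, edgeR). Dctd, Mthfd2 and Rbbp7 passed in all 15 alternatives, Top1 in 14, Rmi2 and Wdhd1 in 11, Dctpp1 in 10, Supt16 and Pold4 in 9, Samhd1 and Shmt2 in 8 and Asf1b in 4. The number of these 74 genes that changed was sensitive to single libraries, falling from 15 to 5 without Ahr+/+ replicate 1, 4 without Ahr+/+ replicate 3, 9 without Ahr-/- replicate 1 and 5 without Ahr-/- replicate 2. In these fits 6.76%, 5.41%, 12.2% and 6.76% of the 74 genes changed, beside 14.1%, 13.1%, 15.5% and 12.4% of all genes tested, so that the share was below the background there.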

How the data were processed

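Stranded mRNA libraries of 6 mice (3 Ahr+/+, 3 Ahr-/-) were sequenced by the authors on an Illumina instrument, and the deposited counts are whole reads per gene, not normalized. The submitters' processing notes name TopHat2, HTSeq, DESeq and mm10, while the counting options, strand setting included, are not given in the sources used here. The authors' normalized counts and the table of their own comparison, with fold changes and p-values per gene, were not used. There were 0 unused columns of other samples.

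The test covered every gene with 10 counts or more in total and was edgeR's quasi-likelihood test (edgeR 4.0.16, limma 3.58.1, R 4.3.3), with TMM scaling, a prior count of 0.125 and genotype as the only term. Benjamini-Hochberg adjustment ran over all genes tested, and genes were called at an adjusted p under 0.05. Standard errors and 95% intervals follow from the quasi-likelihood F statistic. Normalized counts are counts divided by the TMM-scaled library size relative to the mean library, and single values were compared by two-sided exact permutation tests, which cannot go below 0.1 here. The scripts were tested on simulated data.

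The 51 genes and the other lists were chosen with earlier results of these data known. Values per mouse are given for each changed gene and, per role, for the gene with the largest absolute log2 fold change; from each further list at most the 5 changed genes with the lowest p are named. Genes outside these rules were named after their values were seen, as were the 3 promoter windows, the comparisons within complexes and the split at a mean of 500. Gene positions and exon lengths are from GENCODE M21 on GRCm38, which all 51 symbols matched. An exon length is that of the joined exons of all annotated transcripts of a gene. It can exceed the length of the transcript in use, and comparisons of genes per kilobase depend on it. Of the 51 genes, 16 have another gene on the opposite strand over an exon and 4 one on the same strand, among them Orc5, Mcm7 and Pole2, which leaves their counts uncertain. Promoter windows are from RefSeq. Alternatives covered scaling, filters, DESeq2 1.42.0, a robust fit, the prior count, the threshold, a replicate block and leaving out each library. The 95% intervals include the variation between mice, whereas the floor of 3 counts (0.0559 to 0.136 CPM) covers counting error only. Same-genotype libraries differed by more than sampling noise (chi-square per degree of freedom 3.96 to 9.24), so none was counted as a duplicate.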

Additional observations from a re-analysis of the deposited data

How the results depend on the processing

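Cdt1, Mcm6 and Uhrf1 changed in all 15 alternatives, Dut in 13 and Rpa1 in 7. The number of the 51 genes that changed was 5, moved to 3 at an adjusted p under 0.01 and ran from 3 (without Ahr-/- replicate 2) to 5 with each library left out, while the share of all genes tested ran from 12.4% (without Ahr-/- replicate 2) to 19.3% (without Ahr-/- replicate 3). The number that fell was 3, moved to 1 at 0.01 and ran from 1 (without Ahr-/- replicate 2) to 2. At 0.01, 10.8% of all genes tested were called. Of the 74 further genes 15 changed, 3 at 0.01 and from 4 (5.41%, beside 13.1% of all genes, without Ahr+/+ replicate 3) to 13 with each library left out. The median log2 fold change of the 51 genes, −0.0044, moved to 0.021 with scaling by library size alone, which moved the median of all genes tested from 0.0022 to 0.027, and ran from −0.042 to 0.0073 with each library left out. Of the 21 replication genes whose fold change was refitted with each library left out, 3 that had not changed turned sign: Mcm3 (−0.033 to 0.088), Mcm4 (−0.059 to 0.082) and Rpa3 (−0.0012 to 0.14). The causes were not tested.

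The replicate numbers did not pair the mice: the correlation of deviations was 0.01, 0.10 and −0.0064 for same-numbered mice, and not every library correlated best with its own number. With the replicate block, 5 of the 51 genes changed and 16.8% of all genes tested were called. With 3 mice per genotype, the scarcest genes limit the precision most: the half-width of the 95% interval had a median of 0.11 on the log2 scale and reached 0.47 for Cdc6.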

Other observations

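Genes of mitosis, which act after replication, did not separate the genotypes as a group. The 20 genes of the mitosis list had a summed level of 4279, 5999 and 5284 normalized counts in Ahr+/+ and 4600, 4963 and 4191 in Ahr-/- mice. The genotypes overlapped, and 17 of the 20 log2 fold changes were below 0, with a median of −0.15, beside 6752 of 13682 and 0.0022 for all genes tested. Kif23, a kinesin of the midzone needed for cytokinesis, was the gene of this list that changed, which is 5% of the list beside 17.9% of all genes. It had 362, 442 and 401 normalized counts in Ahr+/+ and 259, 250 and 218 in Ahr-/- mice, without overlap. Its log2 fold change was −0.74 (95% interval −0.95 to −0.52, adjusted p = 2.0e-04, edgeR), and it changed in all 15 alternatives. Without Ahr+/+ replicate 1, the lowest Ahr+/+ mouse for 19 of the 20 genes, 3 genes of the list changed, and 14.1% of all genes tested.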
